A study of Mus musculus with 20 samples.

Results

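The microRNA genes of the mouse hippocampus were examined in 20 RNA-seq libraries. Genes annotated as miRNA were selected on their raw counts, and those whose counts summed to 30 or more over all libraries were kept, which gave 120 of the 223 microRNA genes among the 25190 genes measured. The selection used the total over all groups and not any difference between groups. At its edge, Gm23493, Gm25193 and Mir3473g had 30 counts and were kept, and Gm22690 and Mir145a had 29 and were not. Of the 120 genes, 93 carry a Mir name and 27 a Gm name, which the annotation gives to predicted genes.

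All mice were wild-type C57BL/6JOlaHsd males aged 4 months, with bilateral cannulas aimed at the dorsal hippocampus. Artificial cerebrospinal fluid was infused in the Vehicle group. The Control group was given small RNAs (sRNAs) pooled from post-mortem hippocampi of control individuals, and the Pool 1 and Pool 2 groups sRNAs pooled from 2 separate sets of patients with schizophrenia. The hippocampus was taken 24 hours after the last behavioural test. The infused RNA is human and short, and each pool is 1 preparation, so the 5 libraries of a group share it. No source used here says whether the 5 libraries of a group came from 5 mice, and p-values measure the spread between libraries.

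MicroRNAs are made in steps. A long primary transcript, often the intron of a protein-coding gene or a non-coding RNA, is cut in the nucleus by Drosha and Dgcr8 to a hairpin, exported, and cut again by Dicer1 to a mature strand, which guides an Argonaute protein to messenger RNAs through its seed. In the hippocampus miR-132 and miR-212 are induced by neuronal activity, miR-9 and miR-128 mark neurons, and miR-219 and miR-338 belong to oligodendrocytes. Mature strands are too short and have no poly(A) tail, so libraries of polyadenylated RNA, as here, read primary transcripts, excised introns or RNA that escaped the selection. The values below are therefore not levels of mature microRNAs.

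Of the 120 genes, 88 matched a RefSeq microRNA gene by symbol (build GRCm38.p6), and 87 of these have mature sequences, with 141 different seeds among 148 entries. Mature sequences of some of the genes named in this report, called and not called, are printed 5′ to 3′ with the seed, bases 2 to 8, in capitals.
mmu-miR-5125: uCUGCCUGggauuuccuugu
mmu-miR-6236: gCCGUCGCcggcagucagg
mmu-miR-6240: cCAAAGCAucgcgaaggcccacggcg
mmu-miR-186-5p: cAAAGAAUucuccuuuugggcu
mmu-miR-374b-5p: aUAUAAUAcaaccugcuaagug
mmu-miR-341-3p: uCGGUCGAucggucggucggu
mmu-miR-9-5p: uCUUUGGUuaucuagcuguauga
mmu-miR-7a-5p: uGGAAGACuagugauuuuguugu
mmu-let-7e-5p: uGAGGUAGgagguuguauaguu
mmu-miR-132-3p: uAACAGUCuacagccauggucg
mmu-miR-212-3p: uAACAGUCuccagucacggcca
mmu-miR-221-3p: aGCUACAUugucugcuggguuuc
mmu-miR-222-3p: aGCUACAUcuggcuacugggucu

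A seed was shared between genes in 7 cases, covering 10 genes. The seed of miR-132-3p is also that of miR-212-3p, and miR-221-3p shares its seed with miR-222-3p. Both pairs are clusters, with Mir212 at chr11:75173388-75173478 and Mir132 at chr11:75173682-75173747 (GRCm38, plus strand) in an intron of the non-coding gene 1700016P03Rik.

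Gm23935, Gm24187, Gm24270 and Gm24245, which lie on 4 chromosomes, share nearly all of their 57 bases. They are shown because their reads make up most of those of the 120 genes. In the GENCODE M21 transcripts Gm23935, Gm24270 and Gm24245 are identical, and Gm24187 is 98.25% identical, with the substitution G11A against Gm23935, counted from 1 at the 5′ end and in capitals here.
Gm23935: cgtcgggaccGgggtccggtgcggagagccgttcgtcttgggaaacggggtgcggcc
Gm24187: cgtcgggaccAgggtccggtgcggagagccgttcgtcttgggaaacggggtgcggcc
Gm23935 is at chr16:11144125-11144181 on the plus strand, opposite Zc3h7a. Gm24187 is at chr13:9834469-9834525 on the minus strand in no other gene, Gm24270 at chr9:56223715-56223771 on the minus strand in an intron of Peak1, and Gm24245 at chr4:139338304-139338360 on the plus strand in no other gene. Reads that align equally well to several copies are left out by the counting, so the counts of each copy are uncertain.

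The 120 genes are 55 to 141 bases long, with a median of 86. Relative to other genes on the annotation, 80 lie in an intron of a gene on the same strand, 62 of them in a protein-coding gene, 17 lie in no other gene, 13 opposite another gene and 10 partly in an exon on the same strand. None of the 120 lies wholly in an exon on the same strand, against 283 of the 1979 microRNA genes of the annotation that were not measured (14.3%). Reads that fall in 2 genes at once are left out by the counting, so a hairpin inside an exon cannot collect counts of its own. The setting for strand in the counting is not given in the sources used here, so for the 13 genes opposite another gene the strand of the reads cannot be told apart.

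The libraries held 20588280 to 25543939 counts, of which 1315 to 11615 fell on the 120 genes. The median gene had 71.5 counts over all 20 libraries, 37 genes had 100 or more, and 48 had a count in every library. The floor used here for a value of 0 is 3 counts, or 0.117 to 0.146 CPM (counts scaled to the library total). Markers of hippocampal neurons (Camk2a, Prox1, Wfs1 and 3 others) summed to 4610 to 6970 CPM in all libraries. Vehicle replicate 4 held the highest sum of choroid plexus markers, 8920 CPM, and Pool 2 replicate 1 the highest sums of microglial, astrocyte and blood markers, 544, 2600 and 182 CPM. Thalamus markers were highest in Pool 2 replicates 4 and 2, at 453 and 254 CPM, against 78.5 to 190 CPM elsewhere. Without Vehicle replicate 4 and Pool 2 replicate 1, 7 of the calls described here were lost, and this is said beside each. The part of RNA from other cells in the results was not tested beyond leaving out libraries. In bulk tissue, fewer cells of a type and less RNA per cell cannot be told apart.

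Per length, the level spanned over 3 orders of magnitude. Expressed as CPM per kb of the window in which a 50-base read can touch the gene, Gm23935 had 900.0, Gm24187 330.0, Mir5125 61.3, Gm24270 47.2 and Mir6236 27.2 as means over the 20 libraries. After these followed Mir186 with 12.8, Mir421 and Mir374b with 12.3 each, Mir7220 with 11.7 and Gm27353 with 10.5, and no other gene exceeded 4.87. Gm23935, Gm24187, Gm24270, Gm24245, Mir6236 and Mir6240, grouped after their values were seen, held 79.5% of the 83437 counts.

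**Figure D1:**
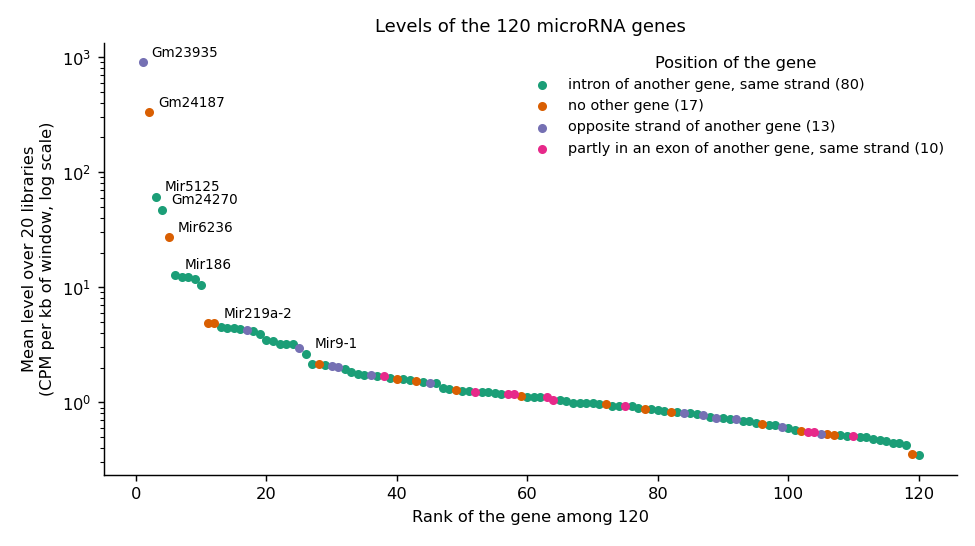
Mean level of each of the 120 microRNA genes over 20 libraries, in CPM per kb of window on a log scale, by rank and coloured by position relative to other genes. Gm23935 (900.0) and Gm24187 (330.0) stand above Mir5125 (61.3), and most genes lie near 1.

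Of the other abundant genes none was called in any comparison. Mir5125 lies in an intron of Srrm2, which encodes a splicing factor, at chr17:23823291-23823369. Its level was 8.24 ± 1.32 CPM in Vehicle, 7.14 ± 1.46 in Control, 7.73 ± 1.54 in Pool 1 and 8.29 ± 0.742 in Pool 2 (mean ± SD, n = 5 each). The groups overlapped. Against Control its log2 fold change was 0.11 for Pool 1 (exact permutation p = 0.556) and 0.21 for Pool 2 (p = 0.159, same test), beside 0.14 and 0.16 for Srrm2 itself.

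Mir374b and Mir421, both in Ftx, a non-coding RNA of the X-inactivation centre, also did not pass the test in any comparison. Mir374b had group means of 1.71 to 1.89 CPM and Mir421 of 1.43 to 1.63 CPM. Mir186, in Zranb2, whose product takes part in splicing, ranged from 0.706 to 2.49 CPM over all libraries, with its lowest and highest values in Pool 1 and Control and wide overlap between groups. Mir7220 and Mir6982 lie in introns of Camk2a, the abundant kinase of excitatory synapses. Mir7220 was at 1.14 ± 0.447 CPM in Control and 1.52 ± 0.482 in Pool 1, a log2 fold change of 0.41 (SE 0.29, permutation p = 0.222), while Camk2a had 0.15.

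Pool 1 against Control asks what sRNAs of patients add to those of controls. A gene was called higher or lower where its log2 fold change was 0.3 or more in size and its edgeR p-value, before adjustment, fell under 0.05. By this rule 10 of the 120 microRNA genes were higher and 1 was lower (9.17%), where 3.48% of all genes were called, 1.48% higher and 1.99% lower. No microRNA gene had an adjusted p-value under 0.05 with edgeR (smallest 0.917). The median log2 fold change of the 120 genes was 0.27 and that of all genes −0.01. Of the 10 higher genes, 6 are those grouped above after their values were seen, which together hold 79.5% of the counts. Within this group Gm24245 (243 counts) and Mir6240 (50 counts) hold few. Among the other 114 genes 4 were higher and 1 lower (4.39%), with a median of 0.21.

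Pool 2 against Control gave 11 higher genes and 1 lower, 12 of 120, beside 6.22% of all genes, 5.20% higher and 1.01% lower. The smallest adjusted p-value was 0.408, and the medians were 0.14 for the 120 genes and 0.003 for all genes. Without the same 6 genes, 5 of 114 were higher and 1 lower (5.26%), with a median of 0.11. Both comparisons share the Control libraries, so their calls are not independent of each other.

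Pool 2 against Pool 1 gave 2 higher and 4 lower genes (5.00%), where 6.82% of all genes were called, 5.66% higher and 1.16% lower. The smallest adjusted p-value was 0.460 and the medians were 0.08 and 0.02. Control against Vehicle, the comparison for infused human sRNA as such, gave 8 lower genes and none higher (6.67%), where 5.10% of all genes were called, 1.70% higher and 3.41% lower. The smallest adjusted p-value was 0.734 and the medians were −0.17 and −0.01. In each of the 4 comparisons the genes with an unadjusted p under 0.05 were 11, 12, 6 and 8, the same numbers as were called. With DESeq2, 3 genes had an adjusted p under 0.05 in each pool against Control (Gm23935, Gm24270 and Mir6236) and none in the other 2 comparisons.

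**Figure D2:**
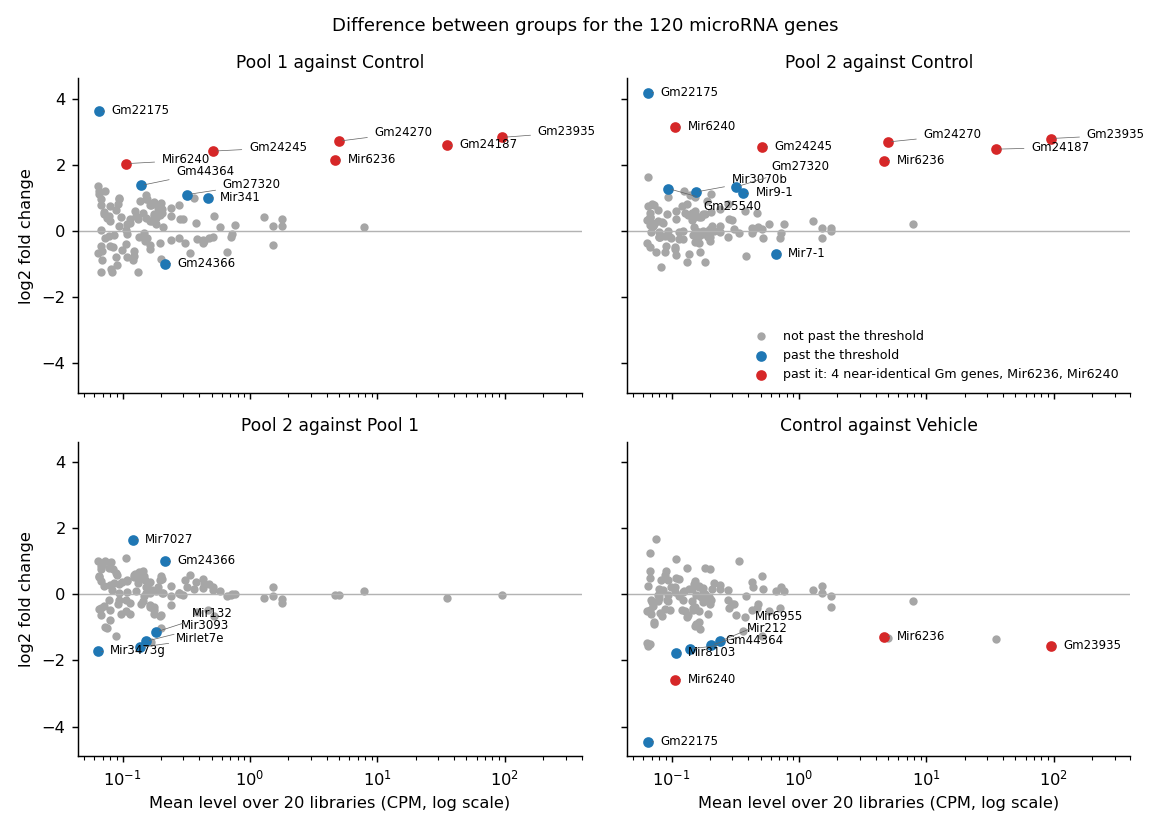
Log2 fold change of the 120 microRNA genes against their mean level (CPM, log scale) in the 4 comparisons. Red points are called genes among the 4 near-identical Gm genes, Mir6236 and Mir6240, blue points the other called genes and grey points the rest. Above 1 CPM only Gm23935, Gm24187, Gm24270 and Mir6236 were called.

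The largest differences among well-counted genes were in the near-identical Gm genes and Mir6236. Gm23935 measured 115, 101, 15.1, 23.8 and 57.5 CPM in Vehicle replicates 1 to 5, and 22.3, 12.9, 23.8, 12.2 and 34.9 CPM in Control. It measured 280, 40.9, 46.8, 139 and 247 CPM in Pool 1 and 134, 62.8, 183, 148 and 208 CPM in Pool 2. Every library of both pools lay above every Control library, while 2 Pool 1 libraries and 1 Pool 2 library lay within the Vehicle range. The log2 fold change against Control was 2.83 in Pool 1 (SE 0.65, p = 0.000455, edgeR) and 2.80 in Pool 2 (SE 0.65, p = 0.000503, edgeR), and an exact two-sided permutation test gave p = 0.00794 for each, the smallest that 5 against 5 allows. Control was lower than Vehicle by the same rule, with a log2 fold change of −1.56 (SE 0.63, p = 0.0236, edgeR) and a permutation p of 0.0794, and this call was lost in 4 of the 10 fits that left out 1 library of these groups (Vehicle replicate 1 or 2, Control replicate 2 or 4). These differences were known from earlier results of the same data.

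Gm24187 followed Gm23935 at a lower level. It ranged over 4.84 to 46.2 CPM in Vehicle, 4.76 to 19.1 in Control, 15.0 to 117 in Pool 1 and 32.9 to 72.7 in Pool 2. Pool 2 lay wholly above Control and Pool 1 did not, with a log2 fold change of 2.47 for Pool 2 (exact permutation p = 0.00794) and 2.59 for Pool 1 (p = 0.0238, same test). Gm24270 had 1.21 ± 0.543 CPM in Control, 7.93 ± 6.22 in Pool 1 and 7.83 ± 3.33 in Pool 2, and Gm24245 had 0.142 ± 0.0991, 0.751 ± 0.641 and 0.835 ± 0.517 (SD, n = 5). For both, Pool 2 was separate from Control and Pool 1 overlapped it.

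Mir6236, at chr9:110281287-110281409 on the plus strand, lies in no other gene. It measured 5.52, 5.93, 2.54, 1.40 and 3.21 CPM in Vehicle and 1.83, 0.873, 1.84, 1.03 and 2.12 CPM in Control. It measured 13.8, 2.73, 2.43, 6.81 and 7.93 CPM in Pool 1 and 4.84, 3.00, 10.5, 7.64 and 7.60 CPM in Pool 2. The 5 Control libraries and 1 Vehicle library were the lowest, and neither pool overlapped Control. The log2 fold changes against Control were 2.14 in Pool 1 (SE 0.50, p = 0.000426, edgeR) and 2.13 in Pool 2 (SE 0.50, p = 0.000449, edgeR), each with an exact permutation p of 0.00794. That of Control against Vehicle was −1.28 (SE 0.50, permutation p = 0.0476), lost without the same 4 libraries as for Gm23935. Mir6240 was at 2 counts in the 5 Control libraries together, against 15 in Vehicle, 10 in Pool 1 and 23 in Pool 2. Its ratio to Control was 5.09 in Pool 1 (95% counting interval 1.09 to 47.8) and 11.3 in Pool 2 (2.80 to 99.2), where the interval covers counting error only. The Pool 1 call was lost with DESeq2, with the replicate block and in 6 of 10 fits that left out 1 library, while the other calls of Mir6240 held in each of those fits.

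**Figure D3:**
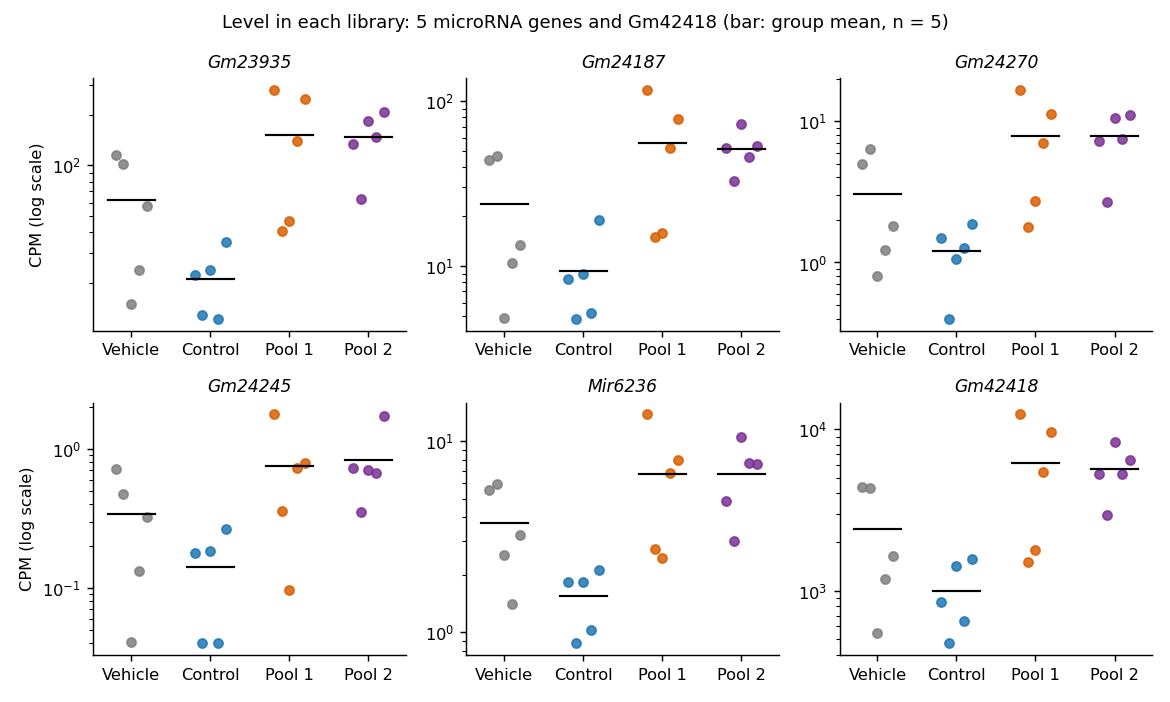
Level in every library (CPM, log scale) of Gm23935, Gm24187, Gm24270, Gm24245 and Mir6236 and of the ribosomal RNA-like gene Gm42418, by group, with bars at the group mean (n = 5). Pool 1 replicate 1 is highest in each, at 280 CPM for Gm23935 and 13.8 CPM for Mir6236.

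Some RNAs that are no microRNA genes were also higher in both pools. Gm42418, which contains ribosomal RNA-like sequence, had 989 ± 480 CPM in Control, 2420 ± 1820 in Vehicle, 6150 ± 4800 in Pool 1 and 5670 ± 1940 in Pool 2 (SD, n = 5). Lars2, a mitochondrial tRNA ligase gene with a ribosomal RNA-like stretch, had 142 ± 62.6 CPM in Control and 609 ± 438 and 637 ± 235 in the pools. Rn7sk, a non-coding RNA without a poly(A) tail, had 4.87 ± 2.74, 41.4 ± 43.9 and 36.6 ± 15.2 CPM, in a different order of libraries, with 19.9 CPM in Pool 1 replicate 5 and 41.3 in Vehicle replicate 2. Of 5 measured ribosomal RNA-like genes, 3 were called higher in each pool (Gm42418, Gm26917 and Lars2) and the mitochondrial mt-Rnr1 and mt-Rnr2 were not. Of 6 measured RNAs without a poly(A) tail, 4 were called higher in each pool (Rn7sk, Rny1, Rny3 and Rnu12), while Rnu11 and Vaultrc5, with few counts, were not. Over all genes, 1.48% were called higher in Pool 1 and 5.20% in Pool 2.

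Within a library Gm23935, Gm24187 and Gm24270 kept to the counts of Gm42418. Over the 20 libraries Gm42418 spanned a 26.4-fold range and Gm23935 a 22.8-fold range, but Gm23935 per 1000 counts of Gm42418 only ranged from 16.6 to 35.2, a 2.12-fold range. For Gm24187 the level spanned 24.7-fold and the ratio 1.96-fold, and for Gm24270 these were 42.2-fold and 2.66-fold. Gm24245, with few counts, spanned 44.9-fold and its ratio 4.89-fold. The rank of a library by the summed level of the 4 Gm genes differed from its rank by Gm42418 by at most 1 place. The Gm23935 ratio was 22.4 ± 4.63 in Control, 25.4 ± 1.73 in Pool 1, 25.7 ± 4.51 in Pool 2 and 26.5 ± 5.64 in Vehicle (SD, n = 5). The ratio of Mir6236 ran from 0.825 to 4.67, a 5.66-fold range, highest in Vehicle replicate 3.

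Group differences were also compared after division by Gm42418. Of 20 ratios compared by exact two-sided permutation tests over libraries, 1 had a p under 0.05, that of Mir6236 in Pool 2 against Control (1.16 against 1.66 per 1000, log2 difference −0.50, p = 0.0317, adjusted p = 0.635). For the 4 Gm genes the log2 differences of the ratio lay between −0.25 and 0.24. The part of ribosomal RNA-like reads in the differences in CPM was not tested beyond these ratios.

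**Figure D4:**
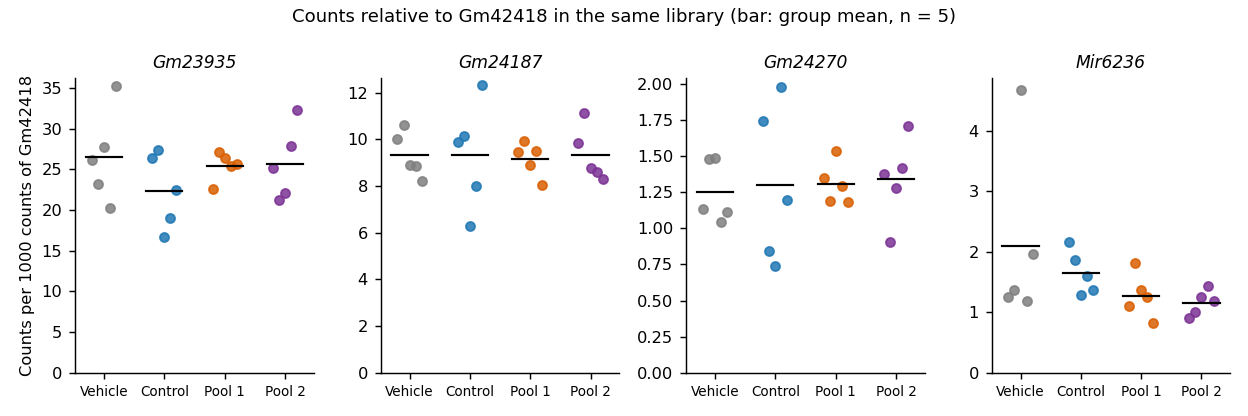
Counts of Gm23935, Gm24187, Gm24270 and Mir6236 per 1000 counts of Gm42418 in the same library, by group, with bars at the group mean (n = 5). The groups overlap in every panel, and Mir6236 is highest in Vehicle replicate 3 (4.67).

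The summed level of the other 114 genes differed between groups by less than the spread between libraries. It was 37.5 ± 5.38 CPM in Vehicle, 34.2 ± 4.97 in Control, 37.4 ± 5.89 in Pool 1 and 37.5 ± 4.04 in Pool 2 (SD, n = 5), and each group overlapped the others. The 6 genes summed to means of 93.5, 33.4, 222 and 214 CPM in the same order.

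Of microRNAs known from neurons, 33 genes were listed, 10 were measured and 8 of these had 30 or more counts. None of the 10 was called in Pool 1 against Control, 1 was higher and 1 lower in Pool 2 against Control, 1 was lower in Pool 2 against Pool 1 and 1 lower in Control against Vehicle. Their median log2 fold changes were 0.20, 0.06, −0.01 and −0.03. Over all genes the medians were −0.01, 0.003, 0.02 and −0.01, and 3.48%, 6.22%, 6.82% and 5.10% were called. The members Mir384, Mir128-1, Mir135a-2 and Mir9-3 were not called in any comparison, with mean levels under 0.3 CPM in every group.

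Mir9-1, one of the genes for miR-9, a neuronal and progenitor microRNA, lies at chr3:88215598-88215686 in an intron of the non-coding gene Gm3764. It had 8, 4, 3, 4 and 4 counts in Control and 14, 8, 16, 7 and 7 in Pool 2. Pool 1 had 11, 16, 9, 8 and 1 counts and Vehicle 7, 17, 15, 10 and 1. Control was low apart from its replicate 1, which overlapped Pool 2. The log2 fold change was 1.14 in Pool 2 (SE 0.55, p = 0.0488, edgeR; adjusted p = 0.645; permutation p = 0.0317), and the call was lost without Pool 2 replicate 1 and Vehicle replicate 4 (0.97) and in 6 of 10 fits that left out 1 library. The call was also lost with DESeq2's size factors (1.13), with a filter on low counts (filterByExpr, 1.12) and with the default estimate of the spread. The part of the glial and blood RNA of Pool 2 replicate 1 was not tested beyond leaving out that library. Gm3764 itself had 0.04. Mir3093, in an intron of the same Gm3764, had 15 counts in Control and 12 in Pool 2 in all.

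Mir7-1, in an intron of Hnrnpk, a gene for an RNA-binding protein, was the only gene called lower in Pool 2 against Control. It had 17, 25, 21, 14 and 19 counts in Control and 8, 21, 15, 10 and 7 in Pool 2. In Pool 1 it had 10, 13, 14, 17 and 6 counts, and in Vehicle 14, 20, 18, 13 and 24. Of the 5 Pool 2 libraries, 3 lay below all Control libraries. The log2 fold change was −0.69 (SE 0.32, permutation p = 0.0476; adjusted p = 0.629, edgeR), beside −0.64 (permutation p = 0.0556) in Pool 1, which did not pass. Without Pool 2 replicate 1 and Vehicle replicate 4 it was −0.59 and did not pass, nor did it in 6 of 10 fits that left out 1 library. Hnrnpk had −0.07.

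Mir132 and Mir212 share a seed, a host and a cluster, and their counts were low. Mir132 had 3, 8, 8, 3 and 4 counts in Pool 1 and 3, 2, 1, 4 and 2 in Pool 2. It had 3, 4, 7, 2 and 7 counts in Control and 8, 3, 5, 3 and 4 in Vehicle. The call in Pool 2 against Pool 1 (log2 fold change −1.14, SE 0.52, p = 0.0385, edgeR) had a permutation p of 0.0714, and the 2 groups overlapped. It was lost with DESeq2, with the replicate block and in 5 of 10 fits that left out 1 library.

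Mir212 had 8, 5, 8, 8 and 7 counts in Vehicle and 2, 3, 6, 0 and 1 in Control. In Pool 1 it had 2, 5, 5, 2 and 5 counts and in Pool 2 9, 2, 6, 3 and 7. Only Control replicate 3 reached into its range. The log2 fold change of Control against Vehicle was −1.54 (SE 0.57, p = 0.0121, edgeR; adjusted p = 0.734; permutation p = 0.0159), whereas Mir132 had 0.01 and the host 1700016P03Rik 0.19 in the same comparison.

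Of 12 genes of the let-7 family, whose mature RNAs are abundant in adult brain, Mirlet7e alone was measured. It lies in an intron of Spaca6 at chr17:17830352-17830444. It had 13, 6, 3, 0 and 6 counts in Pool 1 and 1, 2, 2, 1 and 3 in Pool 2, with 0 to 6 in Control and 2 or 3 in Vehicle. The groups overlapped, and the log2 fold change of −1.60 in Pool 2 against Pool 1 (SE 0.67, p = 0.0258, edgeR) had a permutation p of 0.143. The call was lost without Vehicle replicate 4 and Pool 2 replicate 1 (−1.48), with the replicate block (−1.53), and without Pool 1 replicate 1 (−1.08) or Pool 2 replicate 4 (−1.46).

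Of 19 listed glial and inflammatory genes, 3 were measured: Mir219a-2, Mir338 and the host transcript Mir142hg. None of the 3 was called in any comparison, where 3.48% to 6.82% of all genes were, so no call would be usual. In Control against Vehicle all 3 were lower without passing (log2 fold change −0.84 to −0.41). Their median was −0.69, beside −0.01 for all genes. The medians in Pool 1 and Pool 2 against Control and Pool 2 against Pool 1 were −0.18, −0.17 and 0.37. Mir219a-2, of oligodendrocytes, ran from 0.484 to 1.95 CPM in Vehicle, 0.555 to 1.03 in Control, 0.202 to 0.807 in Pool 1 and 0.274 to 0.876 in Pool 2. Mir338, in an intron of Aatk, had at most 11 counts in a library. Of 15 genes of the miR-17-92 and related clusters and 7 of choroid plexus and ciliated cells none was analysed here, nor were the mouse genes of miR-10b, miR-148a, miR-184 and miR-1911.

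**Figure D5:**
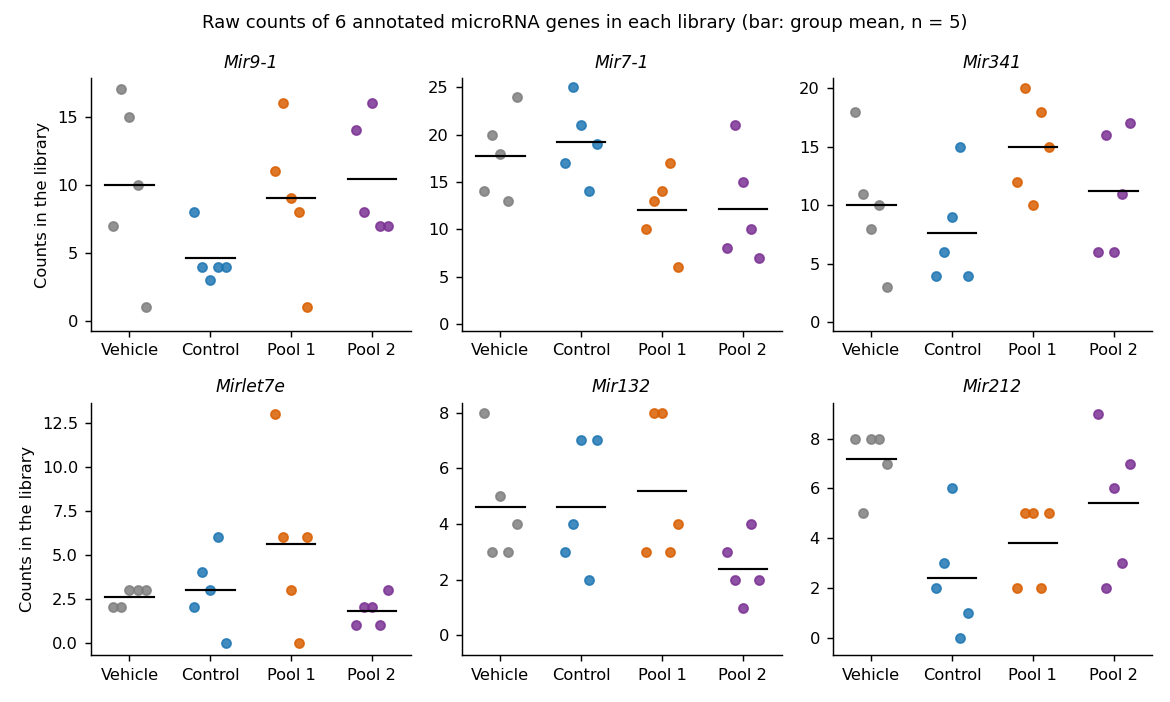
Raw counts in each library of Mir9-1, Mir7-1, Mir341, Mirlet7e, Mir132 and Mir212, by group, with bars at the group mean (n = 5). Values run from 0 to 25 counts, so 1 read moves a library visibly.

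A further 15 of the genes lie in the imprinted Dlk1-Dio3 locus of chromosome 12, whose maternal copy gives the long non-coding RNAs Meg3, Rian and Mirg. Summed, they had 3.04 ± 0.602 CPM in Control, 3.97 ± 0.350 in Pool 1, 3.71 ± 0.964 in Pool 2 and 3.22 ± 1.24 in Vehicle (SD, n = 5). Their median log2 fold change was 0.45 in Pool 1 and 0.20 in Pool 2 against Control, with 1 gene called higher in each and none lower. In Control against Vehicle it was −0.28 with none called. Over all genes the medians were −0.01, 0.003 and −0.01, and 3.48%, 6.22% and 5.10% were called. The 114 genes outside the 6, which include these 15, had medians of 0.21, 0.11 and −0.12. The long RNAs of the locus were not called in any comparison, and in Pool 1 Meg3 had 0.24, Rian 0.11 and Mirg 0.07.

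Mir341, in an intron of Rian at chr12:109611500-109611595, was the gene of this locus called in Pool 1. It had 4, 6, 9, 15 and 4 counts in Control and 12, 20, 10, 18 and 15 in Pool 1. In Pool 2 it had 6, 16, 6, 11 and 17 counts and in Vehicle 18, 11, 8, 10 and 3. Only Control replicate 4 reached into the Pool 1 range. The log2 fold change was 1.01 (SE 0.41, p = 0.0224, edgeR; adjusted p = 0.917; permutation p = 0.0317), and the call was lost in 4 of 10 fits that left out 1 library. Mir1188, 227 bases further on in the same intron region of Rian, had 0.19 (permutation p = 0.508). Mir3070b, in no other gene, was called in Pool 2 with 10 counts in Control and 24 in Pool 2 (log2 fold change 1.18, permutation p = 0.0238). That call was lost with DESeq2, without Vehicle replicate 4 and Pool 2 replicate 1, and in 6 of 10 fits that left out 1 library.

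Several further calls rest on few counts. Gm22175, at chr12:113425150-113425227, had no count in any Control library, and 13 in Vehicle, 7 in Pool 1 and 11 in Pool 2 in all. With Control set to the floor of 3 counts over the group, the ratio to Control was 2.38 in Pool 1, 3.61 in Pool 2 and 4.38 in Vehicle. The counts of the other groups were taken as exact, so these ratios are not lower limits for counting error. No library had more than 5 counts. Setting this gene to these ratios left the medians of the 120 genes as given. That outcome was fixed in advance, as the gene stays on the same side of each median.

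Mir6955, in an intron of Gga1, had 8, 4, 18, 9 and 5 counts in Vehicle and 4, 4, 1, 2 and 5 in Control (log2 fold change −1.42, SE 0.45, permutation p = 0.0238). Mir8103, in an intron of Osbpl7, had 3, 5, 9, 4 and 4 counts against 0, 3, 1, 2 and 1 (log2 fold change −1.77, SE 0.59, permutation p = 0.00794), and its Vehicle CPM lay wholly above Control. Both calls held with each library left out in turn. Mir7027, in Ube3b, had 6 counts in Pool 1 and 21 in Pool 2, and Mir3093 had 32 and 12. Mir3473g had 11 and 3, a ratio of 0.264 for Pool 2 against Pool 1 (95% counting interval 0.0473 to 0.999). The calls of Mir7027 and Mir3473g were lost without Vehicle replicate 4 and Pool 2 replicate 1, and in 1 and 5 of 10 fits that left out 1 library. That of Mir3473g was lost with DESeq2 too, that of Mir7027 with only the compared groups in the fit, and that of Mir3093 in 5 of 10 fits.

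The remaining calls fell on Gm genes and were named after their values were seen, apart from Gm24366 and Gm44364. Gm24366, in an intron of Rnf166, was lower in Pool 1 than in Control, and higher in Pool 2 than in Pool 1, with means of 0.132 CPM in Pool 1, 0.266 in Control and 0.264 in Pool 2. These 2 calls were both lost with DESeq2 and with the replicate block. That of Pool 2 against Pool 1 was also lost with only the compared groups in the fit. In fits that left out 1 library the calls were lost in 8 and 6 of 10. Gm44364 was lower in Control (0.0598 CPM) than in Vehicle (0.201) and Pool 1 (0.162), and the calls were lost in 1 and 6 of 10 such fits, the one against Pool 1 also with DESeq2. Gm27320, opposite Elmo3, had 0.175 CPM in Control, 0.384 in Pool 1 and 0.451 in Pool 2, with single libraries at 0.809 and 0.896. Its Pool 1 call was lost with DESeq2, with the replicate block and in 4 of 10 fits that left out 1 library. These were the fits without Control replicate 1, 2 or 3 and without Pool 1 replicate 1, where the log2 fold change was 0.63 in place of 1.10. Without Pool 2 replicate 2 that in Pool 2 was 0.93 in place of 1.33 and not called. Gm25540, partly in an exon of Slc16a6, had 0.0588 CPM in Control and 0.153 in Pool 2. Its call was lost in 7 of 10 fits that left out 1 library and without Vehicle replicate 4 and Pool 2 replicate 1. It was also lost with DESeq2, with the replicate block and with only the compared groups in the fit.

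Calls were too few to compare microRNA genes with the genes that contain them. A host on the same strand was measured for 88 of the 120 genes, 76 hosts in all. In Pool 1 against Control 3 of these microRNA genes and 1 host were called, in Pool 2 against Control 4 and 0, in Pool 2 against Pool 1 6 and 0, and in Control against Vehicle 3 and 1. In the same order 3.48%, 6.22%, 6.82% and 5.10% of all genes were called.

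Of 16 listed long non-coding RNAs, most of them microRNA hosts, 15 were measured, and 4 were called in Pool 1 against Control, where 3.48% of all genes were. Of these Mirt1 was higher (log2 fold change 0.89, 2.68 to 4.96 CPM) and Mir99ahg (−0.35), Dleu2 (−0.32) and Mir155hg were lower, the last with 11 counts over all libraries and none in Pool 1. Mir99a, the microRNA in Mir99ahg, had −0.83 (SE 0.60, permutation p = 0.286) and was not called. H19 was higher in Pool 2 than in Pool 1 (log2 fold change 1.87), with 110 counts in all, and none was called in the other comparisons. The median of the 15 was 0.05 in Pool 1 and 0.09 in Pool 2, beside −0.01 and 0.003 for all genes.

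For the machinery that makes and uses microRNAs 16 genes were listed. Of these, 12 were measured and none was called in any of the 4 comparisons, with medians between −0.04 and 0.05. Over all genes 3.48% to 6.82% were called and the medians lay between −0.01 and 0.02, so with 12 genes few calls or none would be usual. Drosha had 104 CPM in Vehicle, 100 in Control, 107 in Pool 1 and 101 in Pool 2. Dicer1 had 76.4 CPM in Vehicle, 71.1 in Control, 73.6 in Pool 1 and 74.2 in Pool 2. Ran, whose product drives export of the hairpin, had 124 CPM in Vehicle and 139 in Control, a log2 fold change of 0.17 that did not pass. The Argonaute genes were not analysed here.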

How the data were processed

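The authors prepared stranded poly(A)-selected libraries from mouse hippocampus, sequenced 50-base single-end reads, checked them with FastQC 0.11.5, aligned them to GRCm38 (mm10) with STAR, and deposited raw read counts per gene, one value per library, without normalization. Genes with a summed count under 10 had been left out. Counts were read as deposited for 20 libraries (5 per group, by sample label), with totals of 20588280 to 25543939. The counting skips reads that map to several places or overlap several genes. Positions, contexts and the 57-base sequences came from GENCODE M21, at whose position all 120 genes lay, and mature sequences from RefSeq.

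The quasi-likelihood test of edgeR 4.0.16 (R 4.3.3) was run on these counts with TMM factors and robust estimation. All 4 groups and 25190 genes entered 1 model, with Benjamini-Hochberg adjustment over all genes. Levels are CPM with the TMM factors. Exact two-sided permutation tests used log2 CPM with a prior count of 2 (252 arrangements). The fit was tested on simulated data.

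The microRNA genes, the lists and the comparisons were chosen with earlier results of these data known. Genes were named by a rule: the 12 highest mean CPM, up to 6 called genes with the smallest p per comparison, called members of lists, and Mir6236, Gm23935 and Gm24270. All other called genes and examples were named after their values were seen. No 2 libraries of a group were alike within counting error (chi-square over degrees of freedom 8.23 to 66.8).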

Additional observations from a re-analysis of the deposited data

Results flagged for a closer look

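Among 184 groups of 5 libraries (46 named genes in 4 groups), 9 held a library far from the other 4 by Dixon's criterion on log2 CPM, and chance flags about 1 in 20 such groups. Low values were Mir5125 in Vehicle replicate 4 (5.97 CPM, 136 counts), Gm24270 in Pool 2 replicate 2 (2.69 CPM), Mir1188 in Vehicle replicate 5 (0.140 CPM, 3 counts), Mir212 in Vehicle replicate 2 (0.216 CPM, 5 counts) and Mir219a-2 in Pool 1 replicate 1 (0.202 CPM, 5 counts). High values were Mir8103 in Pool 2 replicate 2 (0.117 CPM, 3 counts), Mir9-1 in Control replicate 1 (0.358 CPM, 8 counts), Gm27320 in Pool 1 replicate 1 (0.809 CPM, 20 counts) and Gm25540 in Control replicate 4 (0.119 CPM, 3 counts). Vehicle replicate 4 is the library with the highest sum of choroid plexus markers, and Pool 1 replicate 1 the one with the highest level of Gm42418; their part in these values was not tested.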

How the results depend on the processing

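The called microRNA genes in the 4 comparisons numbered 11, 12, 6 and 8, in the order of the report. Filters on low counts test fewer genes, as they keep 28 (filterByExpr) or 21 (mean normalized count of at least 10) of the 120. With filterByExpr 6, 6, 0 and 2 were called, where 2.46, 5.55, 6.67 and 4.75% of all genes were. With the other filter 6, 6, 0 and 4 were called, where 2.42, 5.82, 6.81 and 4.78% of all genes were. In each pool against Control the called share of the kept genes was above that of the 120. Most of those calls were Gm23935, Gm24187, Gm24270, Gm24245 and Mir6236, which both filters kept while most other genes were removed. The higher share is therefore not a result about the other microRNA genes. DESeq2 gave 7, 10, 3 and 10, where 2.64, 5.11, 5.69 and 4.32% of all genes were called. Without Vehicle replicate 4 and Pool 2 replicate 1 the counts were 11, 8, 3 and 10, beside 3.78, 4.55, 4.95 and 5.07% of all genes. With each library left out they ranged over 7 to 12, 9 to 13, 2 to 6 and 6 to 12. Pool 2 against Pool 1 had 2 calls without Pool 1 replicate 1 or 2 and 3 without Pool 2 replicate 4, and Pool 1 against Control had 7 without Control replicate 2. With the replicate block the counts were 8, 11, 5 and 9. Libraries with the same number did not deviate together (r from −0.321 to 0.277 over 30 pairs, and 1 library matched its own number best). These correlations run over many genes, and a pairing by number that acts on few genes was not tested. DESeq2's size factors gave 11, 11, 6 and 8, fits of only the compared groups 12, 11, 5 and 8, and the default estimate of the spread 11, 11, 6 and 10.

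None of the calls changed sign under these alternatives. Divided by the counts of Gm42418, an alternative chosen after seeing the data, the log2 differences against Control were below 0 for Mir6236 (−0.40 in Pool 1 and −0.50 in Pool 2) and near 0 for Gm24245 in Pool 1 (−0.0473). By construction the division lowers each difference by about that of Gm42418 itself (2.64 and 2.52), so a gene with a smaller one turns sign. The Pool 1 and Pool 2 calls of Gm23935, Gm24187, Gm24270, Gm24245 and Mir6236 against Control held in all of them, but not after that division. Losses of calls of the other genes are given in the report, where a gene removed by a filter on low counts is not counted as lost. Intervals cover counting error only, and the floor covers it only for the group at 0. The median standard error of the log2 fold changes of the 120 genes was 0.616 to 0.644.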
